A study of Mus musculus with 24 samples.

Results

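CD4 T cells of Pdha1 knockout (KO) mice were compared after activation and at rest. The comparison takes 6 of the 24 libraries of the series, chosen by their labels: 3 of activated cells (KO activated 1 to 3) and 3 of resting cells (KO resting 1 to 3). All 6 carry the genotype written Pdha1fl/fl CD4CreERT2, that is, loxP-flanked Pdha1 alleles and a Cre recombinase that is fused to the oestrogen receptor, named with CD4, and active only when tamoxifen is given. The labels give neither the tamoxifen schedule nor the age or number of the mice. Activated cells received antibodies to CD3 and CD28 for 24 h, resting cells received nothing, and the culture medium held 15% serum and 2 mM glutamine. WT libraries serve as a background in 2 places: activated and resting WT cells of the same cohort (3 each), and activated and resting WT cells of a second cohort, made as controls for an Acly deletion (3 each). Nothing in the labels says that replicates are separate mice, so p-values measure only the spread between these libraries, which may be technical.

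A naive CD4 T cell is small and quiescent. Ligation of its antigen receptor together with CD28 starts calcium, NFAT, NF-kB and AP-1 signalling, then transcription of cytokines and of Myc, then growth, and DNA replication and division come last. Growth draws on pyruvate, which pyruvate dehydrogenase turns into mitochondrial acetyl-CoA for the tricarboxylic acid (TCA) cycle and which lactate dehydrogenase turns into lactate. The E1 alpha subunit of pyruvate dehydrogenase is the product of Pdha1. The comparison shows which transcripts change on stimulation in cells labelled as lacking that subunit.

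RPM, the deposited unit, is scaled to a sum of 1000000 per library. Its values, called reads below, behaved as corrected counts of identifiers, as described with the processing. Pdha1 (chrX:160122209-160138413, GRCm38) had 30.4, 27.4 and 19.996 RPM in KO activated 1 to 3. In KO resting 1 to 3 it had 7.33, 0 and 25.9 RPM. WT cells of the same cohort had 84.7, 40.8 and 5.35 RPM when activated and 6.78, 3.14 and 6.01 RPM at rest. Pdha1 reads were thus found in 5 of the 6 KO libraries. WT activated 1 and 2 lay above every activated KO library, and WT activated 3, which stood apart from them as described below, lay under all 3. The labels name neither the deleted exons nor the part of the transcript that was read, so these values do not check the deletion.

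The library labelled KO resting 3 stood apart from the other resting KO libraries, and the comparison is therefore given with and without it. Across 6840 genes with a mean of at least 20 RPM, its log2 levels had a Pearson correlation of 0.953, 0.942 and 0.887 with KO activated 1 to 3, against 0.57 and 0.279 with KO resting 1 and 2. Its highest correlation was with WT activated 2 (0.959), and with WT activated 1 and 3 it was 0.787 and 0.539. KO resting 1 and 2 had a correlation of 0.846 with each other. These are correlations across genes, which are not independent replicates. Among the 2657 genes that were higher in activated cells when the library was set aside, its own level lay nearer to the activated mean in 2617 (98.5%), and above all 3 activated libraries in 1478. Of the 364 genes that were lower, it lay nearer to the activated mean in 344 (94.5%). The reason for this profile was not tested.

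**Figure D1:**
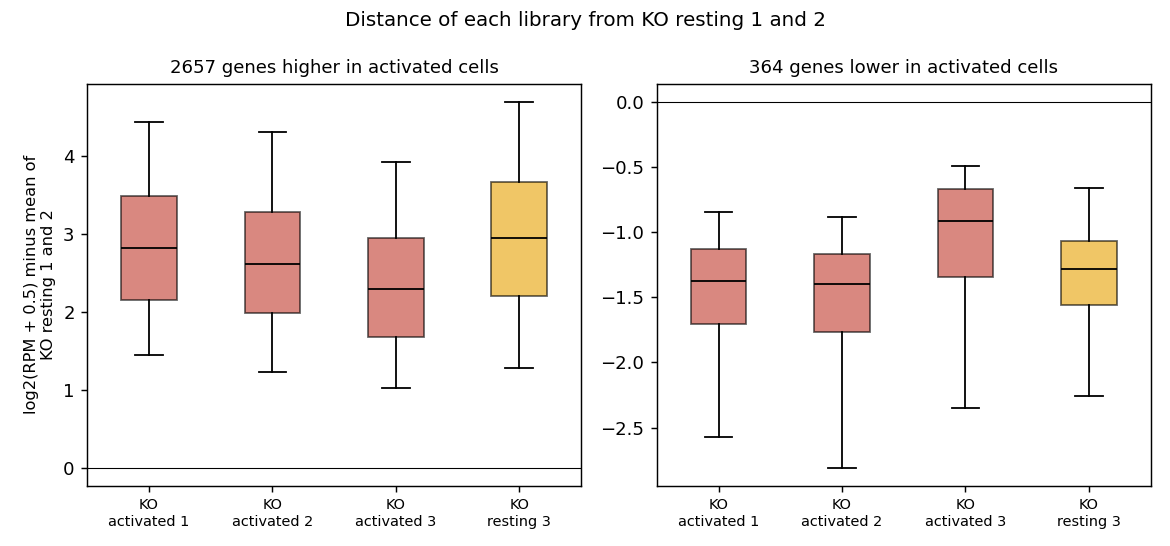
Log2(RPM + 0.5) in KO activated 1 to 3 and in the library labelled KO resting 3, minus the mean of KO resting 1 and 2, over the 2657 genes called higher (left) and the 364 called lower (right) without that library. Boxes give the median and quartiles over genes and whiskers the 5th and 95th percentiles; the library labelled KO resting 3 has a median of 2.95 on the left, beside 2.81, 2.61 and 2.30 in KO activated 1 to 3.

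As labelled, 1 of 28669 tested genes differed between activated and resting KO cells at an adjusted p under 0.05 in limma, a linear model fitted across all genes. That gene, the predicted gene Gm10863, was higher in activated cells (0.00349% of the genes tested), and no gene was lower (0%). At an unadjusted p under 0.05 there were 1072 genes. On rounded counts, described with the processing, edgeR called 0 and DESeq2 called 1. Gm10863, singled out after its values were seen, had 45.4, 82.9 and 68.5 RPM in KO activated 1 to 3, against 7.33, 8.44 and 6.88 RPM in KO resting 1 to 3. Its groups did not overlap, and it was also called without the library labelled KO resting 3. No gene of the lists described below passed as labelled, so their counts of rises and falls are those without the library labelled KO resting 3. Every activated library lay above every resting library in 980 genes (3.42%) and below every one in 1376 (4.8%).

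Without the library labelled KO resting 3, 3021 of 28049 genes passed, 2657 of them higher in activated cells (9.47%) and 364 lower (1.3%). Values after ± below are standard errors from this fit of 5 libraries, with adjusted p from limma unless another fit is named. The library was set aside because of its expression profile, not for a reason outside the data, so these p-values are too small by an amount that was not measured. The median log2 change of all genes was -0.21, and changes are to be read against that shift. Counts of list members below are to be read against 9.47% of all genes higher and 1.3% lower. Scaling in the manner of TMM moved the median to 0.09 and gave 3003 genes higher and 44 lower, scaling to olfactory and vomeronasal receptor reads moved it to 0.13 and gave 3425 and 43, and quantile normalization moved it to -0.26 and gave 2544 and 818. The rise of most called genes thus did not depend on scaling, as 2565, 2646 and 2513 of the 2657 were also called under these scalings, and the number of falls did. A fit with all libraries of the cohort, WT included, called 1 gene, and the same fit without WT activated 3 called 2080.

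Recovered counts, the whole numbers behind the deposited RPM, were 1023705, 883255 and 978143 in KO activated 1 to 3, against 975222, 484287 and 881235 in KO resting 1 to 3, and a count of 0 in a library allows up to 2.20 to 5.06 RPM (3 counts, counting error only). Receptor genes of the olfactory and vomeronasal families, with no known role in T cells, summed to 75859, 82848 and 89905 RPM in KO activated 1 to 3, against 105159, 109203 and 66696 RPM in KO resting 1 to 3. Those sums were thus lower in each activated library than in KO resting 1 and 2 and lowest in the library labelled KO resting 3. In each of these libraries, 14 to 25 of the 1893 receptor genes were enough to hold 50% of the sum. Of 1270 receptor genes tested without that library, 38 were called lower and 0 higher, with a median log2 change of -0.48. Protein-coding genes other than these receptor genes held 57.7% to 62.0% of the reads of the activated libraries. In KO resting 1 to 3 they held 53.4%, 53.9% and 65.7%. The part of this background in the results was not tested.

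**Figure D2:**
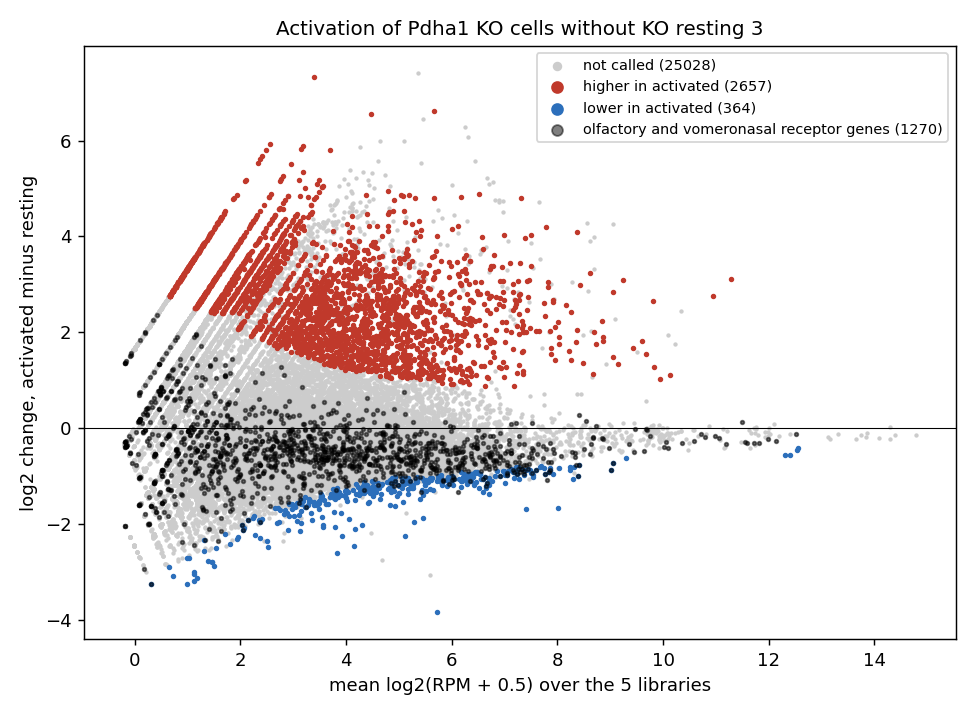
Log2 change between activated and resting KO cells (y) against the mean log2(RPM + 0.5) over the 5 libraries (x), without the library labelled KO resting 3; each point is a gene. The 2657 genes called higher reach a change of 7.33, the 364 called lower lie mostly between -1 and -2, and the 1270 receptor genes (black) lie around a median of -0.48.

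Cytokines, chemokines and cytotoxic effectors included the largest change among genes that passed, that of Ifng. Without the library labelled KO resting 3, 11 of 21 tested members of the list rose, none fell, and the median log2 change was 2.71, against -0.21 over all genes. Ifng (chr10:118441046-118445892), which encodes interferon gamma, had 99.01, 78.6 and 65.2 RPM in KO activated 1 to 3, against 0 and 0 RPM in KO resting 1 and 2, while the library labelled KO resting 3 had 125 RPM. Its reads were at 0 in the first pair of resting libraries and highest in the third. Measured against the floor of 3 counts per library, Ifng was at least 22.3-fold higher in the activated cells than in KO resting 1 and 2 (log2 change 7.33 ± 0.45, adjusted p = 1.9e-10; the fitted change depends on the pseudocount). As labelled, the same gene gave log2 change 4.67 ± 2.58, adjusted p = 0.835. Ccl4 (chr11:83662584-83664683), a chemokine that attracts lymphocytes and monocytes, had 337, 353 and 265 RPM in KO activated 1 to 3, against 2.20 and 3.38 RPM in KO resting 1 and 2, while the library labelled KO resting 3 had 564 RPM (log2 change 6.61 ± 0.32, adjusted p = 1.25e-12). Ccl3, its neighbour and paralogue, followed with 55.1, 46.4 and 38.5 RPM, against 0.732, 0 and 109.9 RPM in KO resting 1 to 3. Both chemokines were higher in the library labelled KO resting 3 than in any activated library.

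Gzmb, the protease granzyme B, had 99.8, 63.8 and 42.5 RPM in KO activated 1 to 3, against 2.20, 0 and 147 RPM in KO resting 1 to 3 (log2 change 5.81 ± 0.67, adjusted p = 2.47e-04 without the third). The type 2 cytokine Il13 had 23.7, 37.8 and 15.2 RPM, against 0, 0 and 81.7 RPM, and was at least 7.04-fold higher than in KO resting 1 and 2. Il2, the T cell growth factor, stayed low, with 6.65, 8.55 and 7.18 RPM in KO activated 1 to 3, against 3.66, 0 and 15.5 RPM in KO resting 1 to 3. It passed the test without the third resting library (log2 change 2.46 ± 0.76, adjusted p = 0.0400), at levels near the floor. Tnf had 20.7, 11.97 and 6.39 RPM, against 0.732, 1.69 and 19.8 RPM (log2 change 2.90 ± 0.62, adjusted p = 0.00202). Transcripts of a T helper 1 cytokine, Ifng, and of a T helper 2 cytokine, Il13, thus rose in the same libraries. Among the 10 largest rises of well-measured genes outside the list stood Rgs16, a regulator of G protein signalling that was at least 8.35-fold higher than in KO resting 1 and 2 and had 37.9, 27.4 and 25.6 RPM, against 0, 0 and 45.8 RPM. Spry1, a feedback inhibitor of growth factor signalling, had 54.4, 52.5 and 29.6 RPM, against 0.732, 0 and 61.5 RPM. The retinoic acid binding protein gene Crabp2 and the chemokine gene Ccl1 were at least 7.83-fold and 7.70-fold higher. For all of these the library labelled KO resting 3 lay within or above the activated range.

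**Figure D3:**
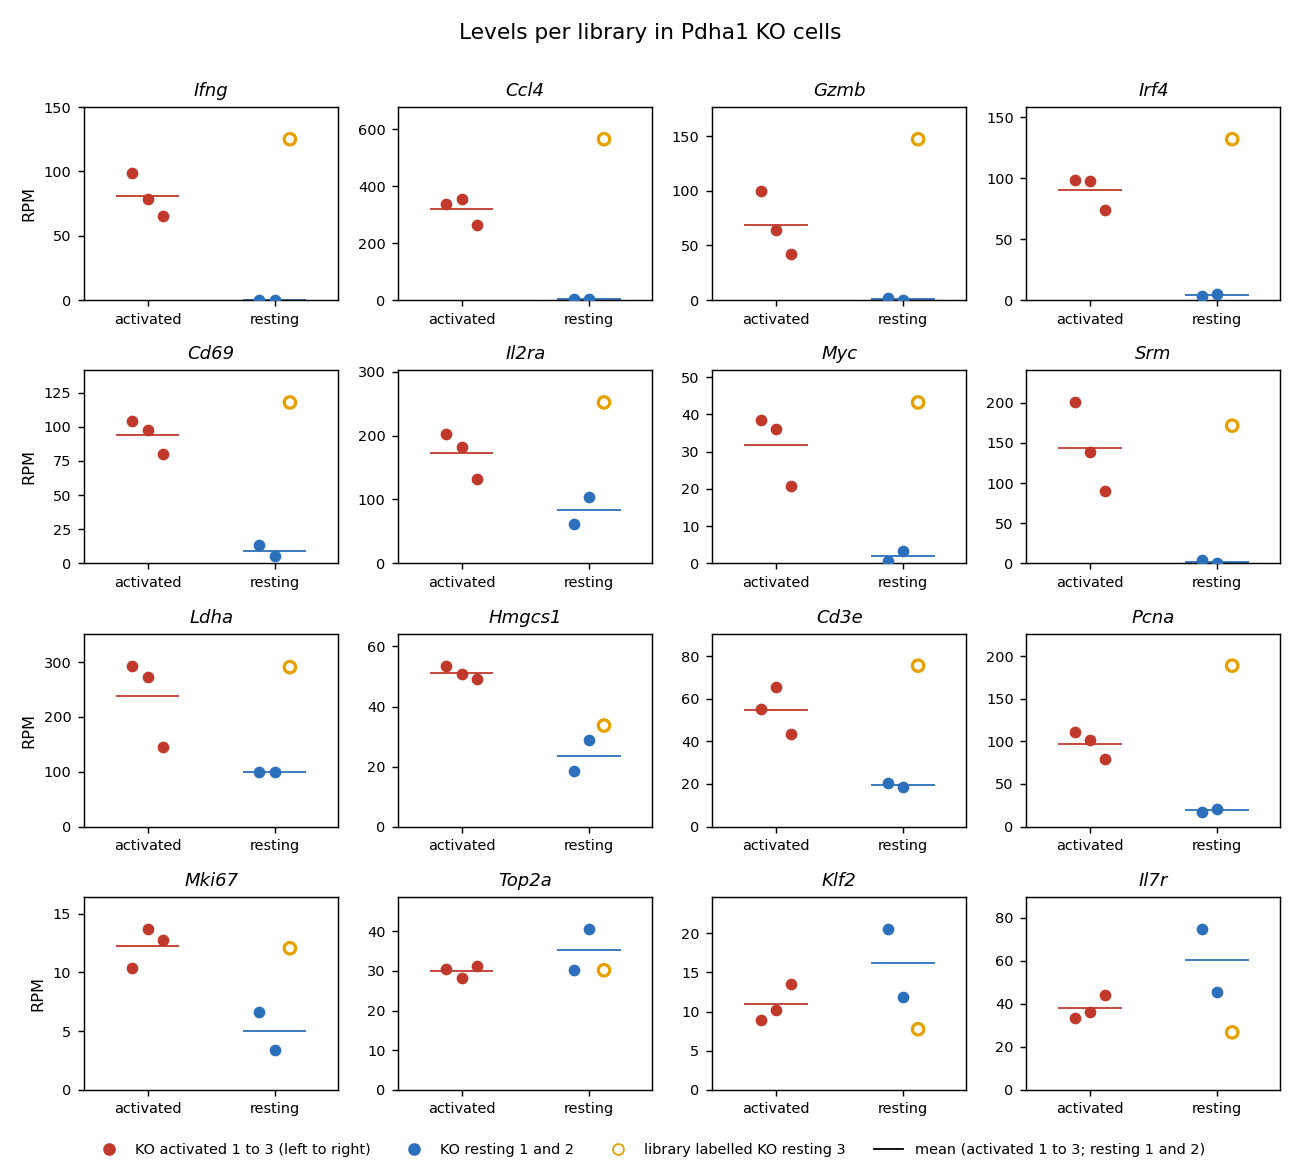
RPM (y, from 0) of 16 genes in KO activated 1 to 3 (left) and KO resting 1 to 3 (right); horizontal lines are means of the activated libraries and of KO resting 1 and 2, and the open symbol is the library labelled KO resting 3. For Ifng the activated libraries hold 99.01, 78.6 and 65.2 RPM, KO resting 1 and 2 hold 0, and the open symbol is at 125; for Top2a and Klf2 the groups overlap.

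Transcription factors induced early by receptor signalling formed the next group, with 13 of 25 tested members rising, none falling and a median log2 change of 2.54. Irf4, which scales with receptor signal strength, had 98.2, 97.8 and 74.2 RPM in KO activated 1 to 3, against 3.66 and 5.06 RPM in KO resting 1 and 2, while the library labelled KO resting 3 had 132 RPM (log2 change 4.22 ± 0.34, adjusted p = 2.05e-08). Egr2, a target of NFAT, had 18.5, 25.7 and 24.8 RPM, against 0, 0 and 31.9 RPM, at least 6.34-fold higher than in KO resting 1 and 2. Myc, which drives growth and metabolic genes, had 38.6, 36.05 and 20.8 RPM, against 0.732, 3.38 and 43.2 RPM (log2 change 3.84 ± 0.51, adjusted p = 9.25e-06). In these genes the activated libraries exceeded KO resting 1 and 2 without overlap, and the third resting library exceeded all of them. Nr4a1, an immediate early gene of receptor signalling also called Nur77, differed from that pattern. It had 35.6, 29.2 and 33.7 RPM in KO activated 1 to 3, against 2.20, 0 and 18.9 RPM in KO resting 1 to 3, so its groups did not overlap even as labelled (log2 change 3.48 ± 1.38, adjusted p = 0.835; without the third, log2 change 4.84 ± 0.59, adjusted p = 7.78e-06). Nr4a3 and Nfkb1 were the other members with no overlap as labelled. Nfkb1, the NF-kB p50 precursor, had 117, 110.2 and 100.4 RPM, against 42.01, 28.7 and 92.2 RPM. Members of the list without overlap numbered 3 of 25, beside 3.42% of all genes. That count was 3 of 24 in the surface receptor list and also 3 of 24 in the naive list, both described below. In the naive list 1 further gene lay below every resting library, beside 4.8% of all genes.

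Surface receptors of activated T cells rose in 9 of 24 tested members, with no falls and a median log2 change of 1.15. Cd69, an early activation antigen that retains cells in lymphoid tissue, had 104, 97.8 and 79.9 RPM in KO activated 1 to 3, against 13.2 and 5.06 RPM in KO resting 1 and 2, while the library labelled KO resting 3 had 118 RPM (log2 change 3.43 ± 0.37, adjusted p = 5.67e-07). Il2ra, the high-affinity subunit of the IL-2 receptor, was already well above the floor at rest, with 202, 182 and 133 RPM, against 62.1, 104 and 252 RPM (log2 change 1.08 ± 0.29, adjusted p = 0.0151). Icos, a costimulatory receptor, had 75.5, 68.99 and 61.2 RPM, against 13.9, 11.8 and 58.9 RPM, with all activated libraries above all resting ones by a small margin (log2 change 2.37 ± 0.32, adjusted p = 1.32e-05; as labelled, log2 change 1.65 ± 0.54, adjusted p = 0.835). The adhesion receptor Cd44 and the transferrin receptor Tfrc gave log2 change 1.55 ± 0.33, adjusted p = 0.00205 and log2 change 2.64 ± 0.38, adjusted p = 2.11e-05. Feedback genes of IL-2 and STAT5 signalling rose in 4 of 10 members. Pim1, a serine kinase that promotes survival, had 623, 522 and 443 RPM, against 73.3, 54.2 and 478 RPM (log2 change 3.05 ± 0.25, adjusted p = 2e-08), and Cish, an inhibitor of cytokine signalling, gave log2 change 2.62 ± 0.34, adjusted p = 8.33e-06. Among 10 tested BCL2 family genes 4 rose, none fell, and the anti-apoptotic Bcl2 gave log2 change 1.28 ± 0.26, adjusted p = 0.00135.

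Genes that define T cells were themselves higher in the activated libraries. Of 21 tested members 13 rose and none fell, with a median log2 change of 2.19. Cd3e, a subunit of the CD3 complex, had 55.1, 65.5 and 43.3 RPM in KO activated 1 to 3, against 20.6, 18.6 and 75.5 RPM in KO resting 1 to 3 (log2 change 1.44 ± 0.33, adjusted p = 0.00388). Cd4 itself had 82.3, 91.7 and 86.5 RPM, against 54.7, 23.7 and 76.4 RPM, and did not overlap as labelled (log2 change 1.26 ± 0.33, adjusted p = 0.0135). The leukocyte phosphatase gene Ptprc gave log2 change 2.13 ± 0.28, adjusted p = 7.19e-06 and the costimulatory receptor gene Cd28 log2 change 2.19 ± 0.31, adjusted p = 1.73e-05. Summed over the list, T cell genes held 2741, 2454 and 1830 RPM in KO activated 1 to 3, against 773, 376 and 2920 RPM in KO resting 1 to 3. Markers of the labelled cell type were thus present in every library and lowest where receptor reads were highest. In such bulk samples, fewer cells of a type and less RNA per cell cannot be told apart.

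Of 24 tested genes of the naive and quiescent state 3 rose and none fell, near the shares over all genes (9.47% and 1.3%), and the median log2 change was 0.27. Under quantile normalization 2 of them fell. Klf2, a factor that holds T cells in quiescence, had 8.87, 10.3 and 13.6 RPM in KO activated 1 to 3, against 20.6, 11.8 and 7.74 RPM in KO resting 1 to 3 (log2 change -0.52 ± 0.43, adjusted p = 0.465). Il7r, the receptor of the survival cytokine IL-7, gave log2 change -0.63 ± 0.33, adjusted p = 0.229, and S1pr1, which lets cells leave lymph nodes, gave log2 change -0.98 ± 0.82, adjusted p = 0.486. The activated and resting ranges of these genes overlapped. Lef1 (log2 change -0.01 ± 0.30, adjusted p = 0.985), Tcf7 (log2 change 1.18 ± 0.44, adjusted p = 0.105) and Ccr7 (log2 change 4.51 ± 1.89, adjusted p = 0.274) did not pass either. The members that rose included Foxp1 (log2 change 1.21 ± 0.30, adjusted p = 0.00899) and Ets1 (log2 change 1.69 ± 0.35, adjusted p = 0.00197), both transcription factors of naive cells.

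Growth machinery made up the broadest set of rises. All 8 subunits of the CCT chaperonin, which folds actin and tubulin, rose (median log2 change 3.18), as did 22 of 26 proteasome genes (2.82), 26 of 34 cytosolic ribosomal protein genes (2.75), 15 of 25 ribosome biogenesis genes (2.62), 14 of 17 translation initiation genes (2.48) and 14 of 20 tRNA synthetase genes (1.84). None of these genes fell. Cct2 had 151, 166 and 95.5 RPM in KO activated 1 to 3, against 14.7, 3.38 and 157 RPM in KO resting 1 to 3 (log2 change 4.13 ± 0.54, adjusted p = 0.00116). Nop56, a protein of the particles that modify ribosomal RNA, had 143, 140.2 and 70.1 RPM, against 7.33, 1.69 and 122 RPM (log2 change 4.76 ± 0.53, adjusted p = 2.04e-04). Rps20 had 704, 560.0 and 508 RPM, against 152, 133 and 713 RPM (log2 change 2.04 ± 0.22, adjusted p = 7.7e-07). In all 3 the activated range lay above KO resting 1 and 2, KO activated 3 was the lowest of the activated libraries, and the library labelled KO resting 3 lay inside or above the activated range. Over all genes that rose, KO activated 3 was the closest to rest in 70.4%. Pseudogenes, many of them copies of such highly expressed genes, made up 21.8% of the genes that rose, beside 11.7% of those tested, so the split of reads between a gene and its copies is uncertain here.

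Transcripts of enzymes and transporters that supply building blocks rose as well, while the building blocks themselves were not measured. Srm, which makes spermidine, had 201, 138 and 90.6 RPM in KO activated 1 to 3, against 3.66, 0 and 172 RPM in KO resting 1 to 3, and was among the largest rises (log2 change 6.56 ± 1.11, adjusted p = 0.0480). Odc1, the first enzyme of polyamine synthesis, gave log2 change 2.84 ± 0.35, adjusted p = 3.29e-06, and 5 of 9 polyamine genes rose, a count that was 2 under quantile normalization and 7 under receptor scaling. One-carbon metabolism rose in 7 of 12 members (median log2 change 2.87) and nucleotide synthesis in 11 of 18 (1.91). Phgdh, the entry to serine synthesis, had 46.8, 30.9 and 17.6 RPM, against 1.46, 1.69 and 32.8 RPM (log2 change 3.85 ± 0.48, adjusted p = 4.28e-06), and Cad, which starts pyrimidine synthesis, had 20.7, 17.1 and 9.58 RPM, against 0.732, 0 and 22.4 RPM (log2 change 4.31 ± 0.64, adjusted p = 3.86e-05). Amino acid transporter genes rose in 4 of 8. The shared heavy chain Slc3a2 gave log2 change 2.18 ± 0.31, adjusted p = 2.14e-05 and the glutamine carrier Slc1a5 log2 change 2.52 ± 0.31, adjusted p = 4.18e-06. Slc7a5, the light chain that carries leucine, had 49.1, 36.9 and 30.4 RPM, against 7.33, 0 and 60.6 RPM, and did not pass (log2 change 4.29 ± 1.38, adjusted p = 0.178).

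**Figure D4:**
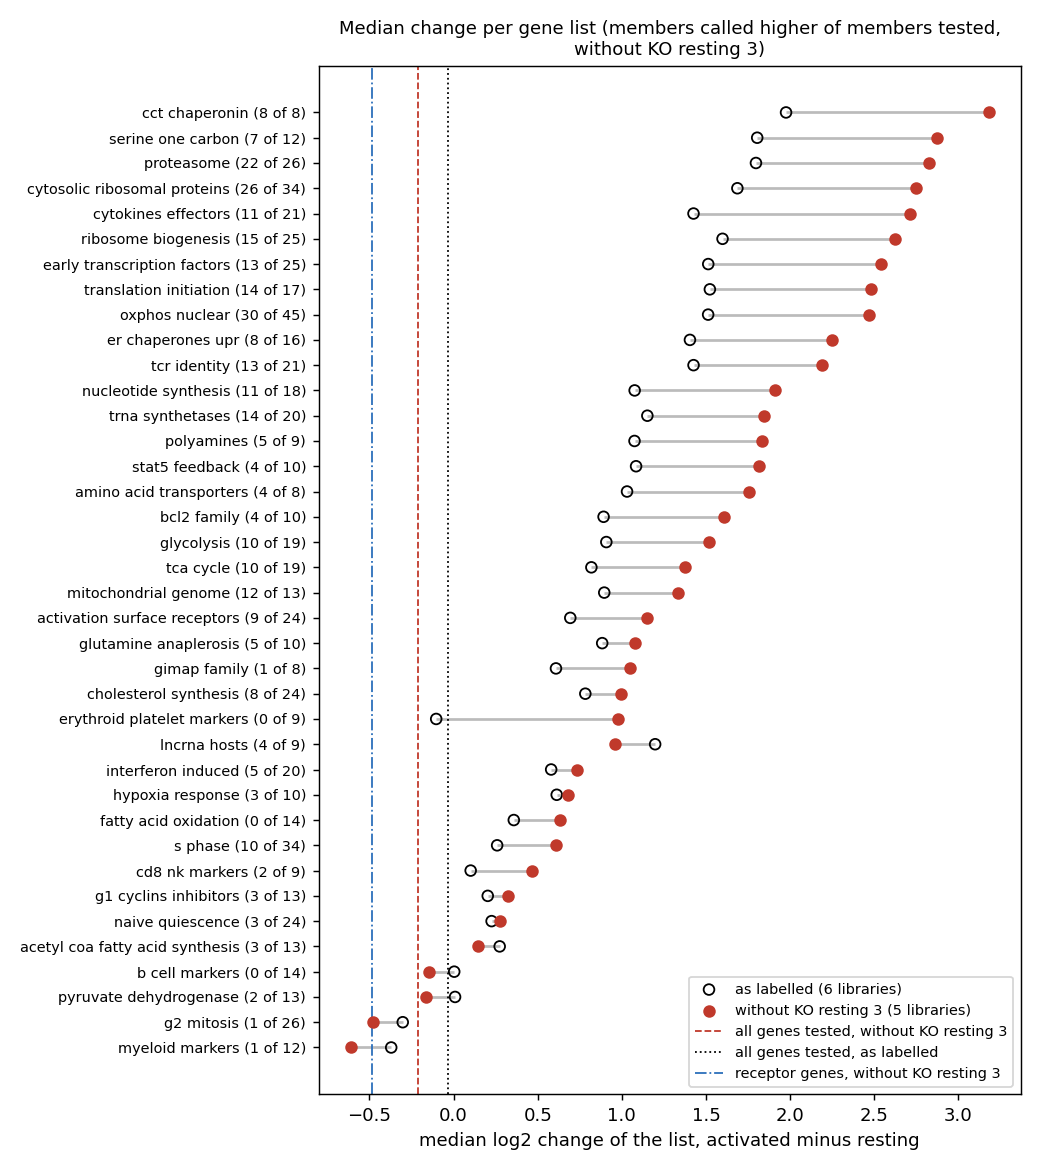
Median log2 change between activated and resting KO cells for each gene list with at least 8 tested members (y), without the library labelled KO resting 3 (filled) and as labelled (open); numbers give members called higher of members tested. Vertical lines are the medians of all genes (-0.21 without that library, -0.03 as labelled) and of receptor genes (-0.48); the CCT list has the highest median, 3.18 without the library and 1.98 as labelled, and the G2 and mitosis list lies at -0.48.

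Transcripts of energy metabolism rose unevenly. Of 45 nuclear genes of the respiratory chain 30 rose, none fell, and the median log2 change was 2.47. Genes on the mitochondrial genome rose in 12 of 13, by less (median 1.33), and mt-Nd2 gave log2 change 1.27 ± 0.23, adjusted p = 0.00152. TCA cycle genes rose in 10 of 19, and so did glycolysis genes. Pgk1, a kinase of glycolysis that yields ATP, had 187, 179 and 123 RPM in KO activated 1 to 3, against 13.2, 6.75 and 214 RPM in KO resting 1 to 3 (log2 change 4.01 ± 0.34, adjusted p = 2.98e-08), and Ldha, which makes lactate, had 293, 273 and 146 RPM, against 98.96, 100.3 and 291 RPM (log2 change 1.18 ± 0.29, adjusted p = 0.00686). Slc2a1, the glucose transporter GLUT1, had 2.21, 7.69 and 1.60 RPM, against 4.39, 3.38 and 7.74 RPM, with overlapping groups (log2 change -0.28 ± 0.70, adjusted p = 0.842).

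Around pyruvate dehydrogenase itself, 2 of 13 tested genes rose and 1 fell, near the 9.47% and 1.3% of all genes, with a median log2 change of -0.16. Pdha1 did not pass (log2 change 3.72 ± 1.30, adjusted p = 0.186; as labelled, log2 change 2.47 ± 1.59, adjusted p = 0.835). Mpc1, a subunit of the mitochondrial pyruvate carrier, had 6.65, 6.84 and 4.79 RPM in KO activated 1 to 3, against 0, 1.69 and 6.88 RPM in KO resting 1 to 3 (log2 change 2.64 ± 0.76, adjusted p = 0.0233). Pdk3, a kinase that switches pyruvate dehydrogenase off, gave log2 change 1.82 ± 0.57, adjusted p = 0.0374. Pdk1, a kinase of the same family, had 54.4, 48.1 and 88.1 RPM, against 115, 129 and 53.7 RPM, and was the gene that fell (log2 change -0.99 ± 0.31, adjusted p = 0.0379); under TMM scaling it no longer passed (limma, log2 change -0.66, adjusted p = 0.123). Acly, which makes acetyl-CoA in the cytosol, rose with 31.2, 24.9 and 19.2 RPM, against 8.80, 1.69 and 33.7 RPM (log2 change 2.48 ± 0.52, adjusted p = 0.00284). Cholesterol synthesis rose in 8 of 24 genes and fatty acid oxidation in 0 of 14, beside 9.47% of all genes. Fatty acid oxidation had 2 calls under TMM scaling. In the cholesterol list 5 of 24 genes had all activated libraries above all resting ones as labelled, beside 3.42% of all genes. Hmgcs1, the enzyme that makes HMG-CoA, was one of them, with 53.6, 50.7 and 49.01 RPM, against 18.4, 28.7 and 33.7 RPM (log2 change 1.14 ± 0.33, adjusted p = 0.0246). Srebf2, which encodes the sterol-sensing factor SREBP2, was another (log2 change 1.08 ± 0.35, adjusted p = 0.0465).

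Interferon-induced genes rose in 5 of 20 tested members, beside 9.47% of all genes, and none fell. Their median log2 change was 0.74. Gbp2, a guanylate-binding GTPase of host defence, had 179, 188 and 211 RPM in KO activated 1 to 3, against 11.7, 3.38 and 173 RPM in KO resting 1 to 3, with no overlap as labelled (log2 change 4.80 ± 0.39, adjusted p = 3.46e-07).

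Cell cycle genes passed in smaller shares than the growth lists, a difference that was not tested. Of the G1 regulators 3 of 13 rose, beside 9.47% of all genes, with a median log2 change of 0.33. Ccnd2, cyclin D2, had 632, 508 and 399 RPM in KO activated 1 to 3, against 53.9, 18.6 and 786 RPM in KO resting 1 to 3 (log2 change 3.97 ± 0.41, adjusted p = 1.64e-04), and Cdkn1a, the inhibitor p21, rose too (log2 change 1.76 ± 0.29, adjusted p = 1.15e-04). In S phase 10 of 34 genes rose and 1 fell (median log2 change 0.61), with no fall under TMM or receptor scaling. Pcna, the sliding clamp of DNA polymerase, had 111, 101 and 79.1 RPM, against 17.6, 20.3 and 189 RPM (log2 change 2.32 ± 0.31, adjusted p = 1.05e-05), and Rrm2, which makes deoxynucleotides, had 28.2, 18.8 and 17.6 RPM, against 8.80, 6.75 and 38.9 RPM (log2 change 1.39 ± 0.41, adjusted p = 0.0273). Both exceeded KO resting 1 and 2 in every activated library. Mcm5, a subunit of the replicative helicase, did not pass, with 44.6, 30.01 and 33.7 RPM, against 19.1, 21.97 and 38.9 RPM (log2 change 0.78 ± 0.34, adjusted p = 0.152). In G2 and mitosis 1 of 26 genes rose and 1 fell, and the median log2 change, -0.48, lay beside -0.48 for the receptor genes. Ccna2, cyclin A2, was the gene that rose (log2 change 2.35 ± 0.64, adjusted p = 0.0155), and Kif11, a spindle motor, the gene that fell (log2 change -1.37 ± 0.43, adjusted p = 0.0384; under TMM scaling log2 change -1.06, adjusted p = 0.128). Top2a, the topoisomerase of dividing cells, had 30.4, 28.3 and 31.2 RPM in KO activated 1 to 3, against 30.2, 40.6 and 30.2 RPM in KO resting 1 to 3, with overlapping groups and a change whose sign was positive under TMM and receptor scaling (log2 change -0.22 ± 0.33, adjusted p = 0.709). Mki67, the proliferation antigen Ki-67, had 10.3, 13.7 and 12.8 RPM, against 6.59, 3.38 and 12.04 RPM (log2 change 1.28 ± 0.49, adjusted p = 0.0979). Summed S phase levels were 929, 822 and 915 RPM, against 765, 1045 and 1066 RPM, and overlapped.

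In WT cells of the Acly cohort, 31 of the 34 S phase genes and 17 of the 26 G2 and mitosis genes rose on activation. Over all genes tested there, 6503 of 29379 rose and 6879 fell, with a median log2 change of -0.72. Far more genes thus passed in those WT cells than in the KO cells. The fits were of unlike size, 6 WT libraries against 5 KO libraries, so these counts alone do not measure a difference between the activations. The difference between the activations was tested in a fit of all 24 libraries. Without the library labelled KO resting 3, 33 of 35216 genes differed, 2 with a more positive change in Pdha1 KO cells (0.00568%) and 31 with a more negative one (0.088%). Under TMM scaling these counts were 4 and 131, and under receptor scaling 3 and 401. As labelled, there were 17 (0.0482%) and 144 (0.408%) of 35290 genes. Of the S phase list 7 of 34 and of the G2 and mitosis list 3 of 26 had a more negative change without that library, and 10 and 5 as labelled. Top2a had 30.4, 28.3 and 31.2 RPM in KO activated 1 to 3, against 326, 349.6 and 277 RPM in activated WT cells of the Acly cohort, which had 20.9, 22.6 and 50.8 RPM at rest; the change in KO cells minus that in WT cells was -3.65 ± 0.51 on the log2 scale, adjusted p = 2.51e-04. Mcm5 reached 303, 253 and 202 RPM in those activated WT cells (-3.11 ± 0.56 on the log2 scale, adjusted p = 0.00817), Mki67 111, 150.2 and 140.0 RPM (-3.03 ± 0.64 on the log2 scale, adjusted p = 0.0466) and Tpx2, a spindle assembly factor, 36.04, 47.7 and 44.3 RPM (-3.44 ± 0.66 on the log2 scale, adjusted p = 0.0178). The ranges did not overlap in any of these genes. Uhrf1, an S phase gene chosen after its values were seen, gave -4.57 ± 0.67 on the log2 scale, adjusted p = 3.84e-04. Rrm2 differed by -5.54 ± 1.16 on the log2 scale, adjusted p = 0.0872 and Pcna by -2.73 ± 1.13 on the log2 scale, adjusted p = 0.350, and neither passed.

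Genotype and cohort cannot be told apart in this comparison. Activated WT cells of the same cohort as the KO had 41.1, 32.96 and 24.7 RPM of Top2a and 59.4, 59.3 and 21.5 RPM of Mcm5. In both genes WT activated 1 and 2 lay above all 3 activated KO libraries, and WT activated 3 lay below them. Receptor reads summed to 30239 to 40501 RPM in activated WT libraries of the Acly cohort, below the activated KO libraries. T cell genes summed to 6054 to 6904 RPM in those WT libraries, against 1830 to 2741 RPM in the activated KO libraries. Red cell and platelet genes summed to 47.4 to 93.0 RPM, against 4917 to 6844 RPM. B cell genes held 61.6 to 98.8 RPM, against 249 to 386 RPM, and myeloid genes 49.8 to 64.4 RPM, against 139 to 194 RPM. The part of these differences in the results was not tested. Among early transcription factors, cytokines, respiratory chain and ribosomal protein genes, 0 of 25, 21, 45 and 34 differed between these activations without the library labelled KO resting 3. With 0.00568% and 0.088% of all genes called, this does not show that they act alike. Their median differences were -0.45, 0.48, -0.88 and 0.31, against 0.29 over all genes. Over all lists the median ran from -2.68 (S phase) to 1.17 (red cell and platelet genes), with nucleotide synthesis at -1.91 and glycolysis at -1.48. Over all genes, 6503 of 29379 rose and 6879 fell in WT cells of the Acly cohort. In the naive list 3 genes rose and none fell in KO cells, while 5 rose and 13 fell in those WT cells. The difference passed in none of the 24, with Klf2 at 2.44 ± 0.66 on the log2 scale, adjusted p = 0.153, and as labelled in Klf2 alone.

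**Figure D5:**
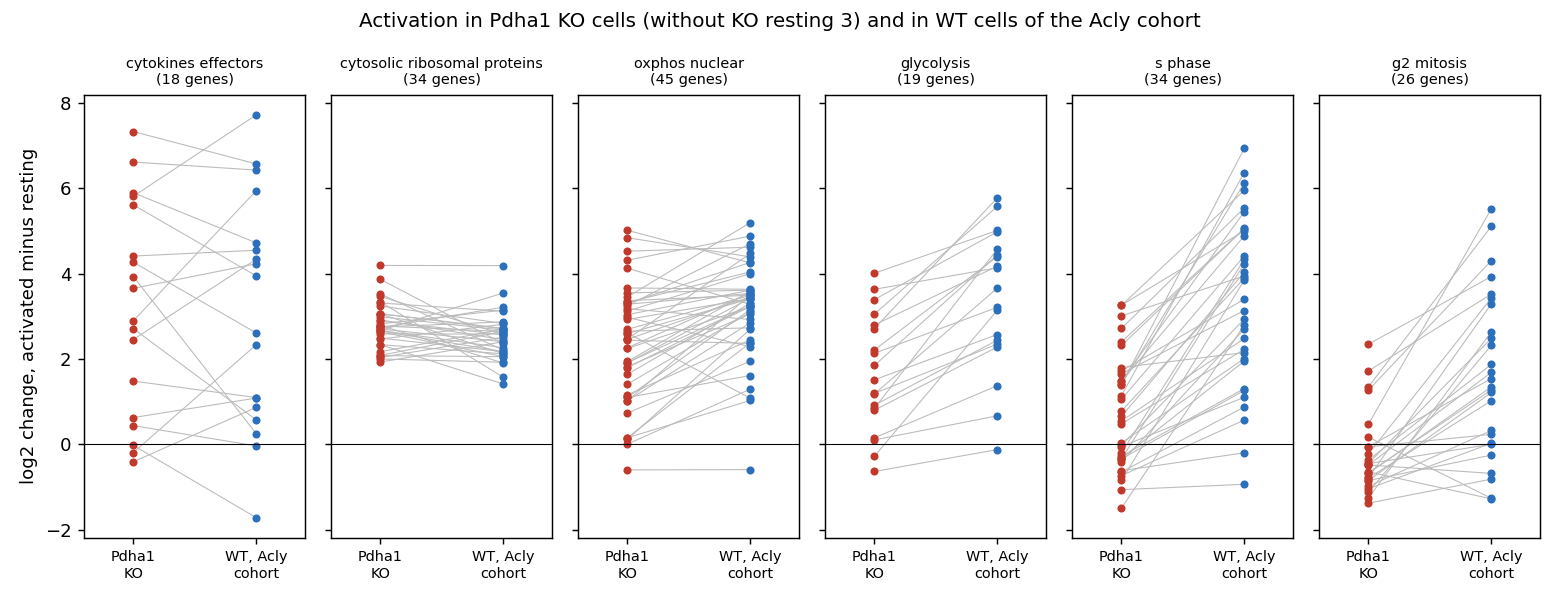
Log2 change between activated and resting cells of each gene of 6 lists, in Pdha1 KO cells without the library labelled KO resting 3 (left, red) and in WT cells of the Acly cohort (right, blue); lines join the same gene. Only genes tested in both are drawn. S phase genes have a median of 0.61 in KO and 3.63 in WT cells, and cytosolic ribosomal protein genes 2.75 and 2.54. Over all genes tested the medians are -0.21 and -0.72.

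Promoter sequences of 4 genes are shown because their results differed from each other in the fit without the library labelled KO resting 3. Ldha and Gzmb were called higher there, and Mcm5 and Top2a were not called. The change of Mcm5 was positive all the same (limma, log2 change 0.78 ± 0.34, adjusted p = 0.152). Each sequence runs from 250 bases before to 50 bases after the transcription start (RefSeq, GRCm38.p6), 5′ to 3′ on the gene's strand. Capitals mark the E-box CACGTG, the core bound by MYC and its partner MAX, in Ldha (chr7:46845554-46845853, plus strand), the AP-1 motif TGACTCA on the other strand in Gzmb (chr14:56262285-56262584, minus strand), the E2F motif TTTGGCGC on the other strand in Mcm5 (chr8:75109259-75109558, plus strand), and the cell cycle homology region TTTGAA on both strands in Top2a (chr11:99024140-99024439, minus strand).
Ldha: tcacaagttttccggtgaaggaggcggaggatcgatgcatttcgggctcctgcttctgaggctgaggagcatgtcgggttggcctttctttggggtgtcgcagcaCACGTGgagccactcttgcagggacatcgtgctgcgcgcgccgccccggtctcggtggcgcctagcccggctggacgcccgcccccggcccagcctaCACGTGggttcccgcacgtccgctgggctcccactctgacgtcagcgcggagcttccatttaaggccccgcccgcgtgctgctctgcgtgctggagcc
Gzmb: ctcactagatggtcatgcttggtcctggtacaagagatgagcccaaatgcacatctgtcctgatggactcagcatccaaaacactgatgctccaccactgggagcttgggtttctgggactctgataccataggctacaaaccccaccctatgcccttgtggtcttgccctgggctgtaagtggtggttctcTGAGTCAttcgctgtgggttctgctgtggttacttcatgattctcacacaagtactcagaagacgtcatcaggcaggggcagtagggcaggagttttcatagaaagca
Mcm5: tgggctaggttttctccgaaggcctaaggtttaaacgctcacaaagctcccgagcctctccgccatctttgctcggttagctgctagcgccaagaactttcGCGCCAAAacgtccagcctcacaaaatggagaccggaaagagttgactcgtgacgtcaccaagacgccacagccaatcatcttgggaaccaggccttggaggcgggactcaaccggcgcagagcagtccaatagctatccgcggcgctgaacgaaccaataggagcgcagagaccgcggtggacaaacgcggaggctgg
Top2a: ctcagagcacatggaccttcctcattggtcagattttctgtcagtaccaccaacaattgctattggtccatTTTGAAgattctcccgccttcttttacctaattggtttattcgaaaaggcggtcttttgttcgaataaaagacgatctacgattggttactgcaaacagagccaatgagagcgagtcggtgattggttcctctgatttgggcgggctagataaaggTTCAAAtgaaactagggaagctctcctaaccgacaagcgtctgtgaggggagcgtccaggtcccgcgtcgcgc
Over 32851 windows of this length, searched on both strands, CACGTG was present in 7.15%, TGACTCA in 5.2%, TTTGGCGC in 0.514% and TTTGAA in 17.9%. In windows of genes that rose without the library labelled KO resting 3, the shares were 12.4%, 3%, 1.07% and 11.2%, beside 8.33%, 4.46%, 0.715% and 15.7% for windows of all genes tested. In windows of the S phase list TTTGGCGC was present in 6 of 35 (17.1%). Windows of the G2 and mitosis list, which stayed near the receptor genes, held TTTGAA in 18 of 24 (75%) and CCAAT in 21 of 24 (87.5%), beside 37.4% for CCAAT in all windows. A gene can have several windows, and none of these shares was tested; a match is a description of letters, not of binding.

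Set against WT cells of the same cohort, the KO activation showed no difference that passed. Activation of those WT cells by itself, as labelled, gave 0 calls among 30005 genes in limma. The lack of calls therefore does not show that the activations were alike. WT activated 1 held 388902 recovered counts, against 860862 and 682674 in WT activated 2 and 3. As labelled, limma called 0 of 30357 genes, with 701 at an unadjusted p under 0.05, and without the library labelled KO resting 3 it called 0 of 30075, with 661. WT activated 3 stood apart in turn, nearer to resting than to activated WT cells. Its correlation across the same 6840 genes was 0.954, 0.928 and 0.943 with WT resting 1 to 3, against 0.131 and 0.536 with WT activated 1 and 2. Cytokine and effector genes summed to 97.8 RPM in it, against 1455 and 1275 RPM in WT activated 1 and 2, and receptor reads to 106049 RPM, against 26547 and 72699.5 RPM. The reason was not tested. WT activated 3 had 13.9 RPM of Pcna, against 372 and 206 RPM in WT activated 1 and 2. Without both libraries 2 of 29032 genes differed (0.00689%), Gm10863 and Fam129b, both with a more positive change in KO cells. Fam129b, chosen after its values were seen, had 306, 361 and 355 RPM in KO activated 1 to 3, against 46.5, 50.8 and 126 RPM in KO resting 1 to 3, while WT cells of the cohort had 31.9, 61.3 and 62.5 RPM when activated and 237, 79.1 and 283 RPM at rest. Activated libraries lay above resting ones in KO cells and below them in WT cells, with no overlap in either.

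Falls were fewer and smaller, and their number depended on the processing. The 364 became 44 and 43 under TMM and receptor scaling, 123 with edgeR and 20 with DESeq2. They became 32, 23 and 128 without KO activated 1, 2 and 3, 2184 without KO resting 1 and 97 without KO resting 2. The largest fall without the library labelled KO resting 3 was Kcnmb4, a subunit of a calcium-gated potassium channel, with 25.2, 17.98 and 11.98 RPM in KO activated 1 to 3, against 184, 367 and 14.6 RPM in KO resting 1 to 3 (log2 change -3.85 ± 0.36, adjusted p = 2.31e-07). Gata6, a transcription factor of heart and gut, had 17.02, 22.3 and 15.2 RPM, against 86.1, 90.01 and 18.9 RPM (log2 change -2.26 ± 0.33, adjusted p = 2.89e-05). Both were high in KO resting 1 and 2 and not in the third resting library. Ttyh2, a chloride channel homologue, differed from them, with 17.02, 7.69 and 9.58 RPM, against 50.9, 40.6 and 53.7 RPM, all activated libraries being below all resting ones as labelled (log2 change -2.02 ± 0.39, adjusted p = 8.41e-04; as labelled, log2 change -2.10 ± 0.41, adjusted p = 0.598). Zcchc3, a zinc finger protein, had 10.3, 7.69 and 5.59 RPM, against 41.3, 35.5 and 15.5 RPM (log2 change -2.25 ± 0.41, adjusted p = 3.82e-04), and a more negative change than in WT cells of the Acly cohort (-4.22 ± 0.75 on the log2 scale, adjusted p = 0.00700). The 10 largest falls included these 4, and all of them kept a negative change under TMM scaling.

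Markers of other cells gave the following levels. Their calls are those without the library labelled KO resting 3, where 9.47% of all genes were higher and 1.3% lower. The B cell list summed to 249 to 386 RPM in activated libraries, against 259 to 473 RPM at rest, and 0 of its 14 genes rose and 1 fell (Cd79b, log2 change -2.91 ± 0.93, adjusted p = 0.0444, near the floor; not called under TMM or receptor scaling). The CD8 and NK list summed to 65.9 to 77.0 RPM, against 57.6 to 87.9 RPM, with 2 of 9 genes higher (Nkg7, also an effector gene of activated T cells, and Eomes) and 1 lower (Cd8b1, not called under TMM or receptor scaling). Myeloid genes summed to 139 to 194 RPM, against 102 to 221 RPM, and 1 of 12 rose (Cst3, not called under TMM scaling or quantile normalization). Red cell and platelet genes summed to 6844, 4917 and 6244 RPM in KO activated 1 to 3, against 7768, 604 and 27395 RPM in KO resting 1 to 3, and 0 of 9 passed. Their sum was thus highest in the library labelled KO resting 3 and lowest in KO resting 2. The part of these cells in the results was not tested.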

How the data were processed

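Libraries of mouse CD4 T cell RNA were made with a stranded total RNA kit with depletion of ribosomal and globin RNA, and reads were single-end, 75 bp, per the labels' protocols. The authors deposited a table of 46981 gene identifiers by 24 libraries in RPM, each column summing to 1000000. GRCm38 and mm10 are the builds in the submitters' processing notes. Neither aligner, counter nor annotation is given in the sources used here, which limits what can be said of multi-mapped reads. Each deposited value came out as a whole count, within 0.01, after a collision correction over 4096 identifiers of 6 bases was inverted, so that a gene can reach 4095 counts per library; in 12 of the tested genes a KO library approached that number of distinct identifiers, where the correction is steep. The labels name no such identifiers. Symbols and positions came from GENCODE M21, which matched 46206 identifiers.

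Linear models were fitted in limma 3.58.1 (R 4.3.3) on log2(RPM + 0.5), with a mean-variance trend and robust moderation, for genes reaching 1 RPM in 2 or more libraries (3 for differences between activations), with Benjamini-Hochberg adjustment over all genes tested and a threshold of 0.05. The pseudocount understates changes of low genes. Activation was fitted on the 6 KO libraries and on 5 without KO resting 3, and the differences from WT activation on 12 or 24 libraries. Correlations of same-numbered deviations from group means were -0.05, -0.07 and -0.29 for libraries 1 to 3. Those means include KO resting 3 and rest on 3 libraries each, so they cannot show whether numbers pair the libraries. The main fits treat the libraries as unpaired. edgeR 4.0.16 and DESeq2 1.42.0 ran as alternatives, after the scripts were tested on simulated data. Their input was the collision-corrected values before inversion, rounded to whole numbers. These lie above the recovered counts, most so in high genes. The other alternatives were pseudocounts of 0.1 and 1, filters, scalings, fits with WT libraries, a replicate block and leaving out each library. Scaling to the receptor sum, leave-out fits of the differences from WT activation, and TMM or receptor scaling of the difference without KO resting 3 were added after seeing the data.

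Genes came from 39 lists (701 symbols, 700 in the table) and a rule: Pdha1 and Acly; a set of markers; up to 4 members per list by p as labelled; and, in each direction, the 10 largest changes among called genes with at least 10 RPM that moved 1 way in all pairs of libraries, leaving out predicted genes, receptors and pseudogenes. None qualified as labelled, so those 10 come from the fit of 5 libraries, where 1587 and 150 qualified. Some genes that the rule names are not reported here. Any other gene named illustrates a list or was, as the text says, chosen after its values were seen. The comparison, the lists and the rule were chosen with earlier results of these data known. A fold against libraries at 0 is the activated mean over the mean floor of 3 counts in KO resting 1 and 2. Promoters came from RefSeq tables on GRCm38.p6.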

Additional observations from a re-analysis of the deposited data

Results flagged for a closer look

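The activation change in Pdha1 KO cells minus that in WT cells of the Acly cohort passed the test of the difference, as labelled, in 9 genes named in the report (limma, adjusted p under 0.05; 24 libraries). Genotype and cohort cannot be told apart in these differences. On the log2 scale they were -6.30 for Rrm2, -4.80 for Uhrf1, -3.80 for Zcchc3, -3.58 for Top2a, -3.45 for Mki67, -3.42 for Mcm5, -3.16 for Tpx2, -2.99 for Ldha and 2.76 for Klf2. Without the library labelled KO resting 3 the difference no longer passed for Rrm2, Ldha and Klf2 and passed for the other 6. Groups of 3 libraries are too small for a test of outlying samples.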

How the results depend on the processing

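As labelled, the single call, Gm10863, was also the single call with a pseudocount of 1, quantile normalization and DESeq2. It gave way to 0 calls with a pseudocount of 0.1, a filter of 5 RPM, TMM or receptor scaling, either fit with WT libraries, limma without trend and robust, and edgeR, while no filter gave 136. Leaving out a library gave 0 to 3021 calls, the highest without KO resting 3 and at most 1 otherwise. Without KO resting 3, the 3021 calls became 1 with all WT libraries of the cohort in the fit, 1371 without trend and robust, and 1904 with DESeq2. Leaving out a further library gave 1167 (KO activated 1), 1300 (KO activated 2), 1658 (KO activated 3), 6457 (KO resting 1) and 2642 (KO resting 2), where a lone resting library is assumed to vary like the activated ones. Against WT cells of the same cohort, the 0 calls became 1 without WT activated 3 (range 0 to 1) and 2 without KO resting 3 as well. Against WT cells of the Acly cohort, the 161 calls became 33 without KO resting 3, 456 with TMM scaling and 255 with a pseudocount of 1. Without KO resting 3, that difference gave 135 calls with TMM and 404 with receptor scaling (131 and 401 more negative), and leaving out other libraries from the 161 gave 18 (WT activated 1) to 261 (KO resting 2). The causes were not tested.

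Whether library numbers pair the libraries could not be settled from the correlations of deviations. A replicate block gave 4 calls as labelled, 2265 without KO resting 3, 0 against WT of the same cohort and 60 against WT of the Acly cohort.

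The direction of some named genes turned; of these, Il2 and Il13 were called in the fit without KO resting 3, where neither turned, and Uhrf1, Top2a and (as labelled) Klf2 in the difference from WT cells of the Acly cohort, a separate result. As labelled, Il13 was at -0.15 with edgeR and -0.25 with DESeq2, and Top2a at 0.029 with TMM and 0.051 with edgeR. Leaving out 1 library gave, as labelled, -0.043 to 2.46 for Il2, -0.52 to 0.16 for Klf2, -0.63 to 0.10 for Il7r, -1.08 to 0.24 for S1pr1 and -0.026 to 0.23 for Lef1. Without KO resting 3, leaving out a further library gave -2.21 to 0.25 for S1pr1, -0.26 to 0.24 for Lef1 and -0.87 to 0.11 for Slc2a1. Klf2, Il7r and S1pr1 turned without KO resting 1, and Il2 without KO resting 2. Without KO resting 3, Lef1 was at 0.31 with TMM, 0.36 with receptor scaling, 0.25 with edgeR and 0.19 with DESeq2. Slc2a1 was at 0.012 with TMM, 0.0498 with receptor scaling, 0.17 with edgeR, 0.20 with DESeq2 and 0.11 with the replicate block. Top2a was at 0.10 with TMM, 0.15 with receptor scaling, 0.13 with edgeR and 0.025 with DESeq2, and Uhrf1 at 0.011 with receptor scaling. A floor of 5.06 RPM in KO resting 2 limits what low genes can show.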
